A study of Mus musculus with 9 samples.

Results

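Eosinophils store a small set of cationic proteins in their granules and carry a small set of surface receptors by which they are identified in the mouse. The genes described here are 9 of the 27179 gene entries counted in each library, chosen by name and matched by their Entrez identifiers: the granule genes Epx, Prg2, Prg3, Ear1, Ear2 and Ear6, and the receptor genes Siglecf, Il5ra and Ccr3. The rule goes by name and uses no measured value, although the names were picked with results of these data known. All 9 were found. Of them, 7 had enough counts to be tested with the other genes, while Ear2 and Ccr3 fell under the filter on low counts and are given as counts.

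The cells were AML246, a mouse acute myeloid leukaemia line of C57BL/6 strain, lacking p53 (p53-/-) and carrying a short hairpin RNA against PU.1 (shPU.1), a transcription factor of myeloid cells that is the product of Spi1. They grew in culture with the cytokine IL3, and clones 1, 2 and 4 were each raised from a single sorted cell. Every clone gave 1 library in each of 3 groups: washed cells, kept 14 days in doxycycline and then 14 days without it and sorted as GFP high; doxycycline cells, kept 14 days in the drug and sorted as GFP off; and untreated cells, sorted as GFP high. Each group therefore has 3 libraries, all from clones of 1 line, and doxycycline, the GFP gate and the state of the hairpin change together and cannot be told apart.

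Epx encodes eosinophil peroxidase, which makes hypohalous acids from hydrogen peroxide. Prg2 encodes major basic protein, which forms the crystalline core of the granule, and Prg3 encodes its close relative. The Ear genes encode eosinophil-associated ribonucleases. Siglecf encodes a sialic acid-binding lectin with an inhibitory tail, Il5ra the ligand-specific chain of the interleukin 5 receptor, and Ccr3 the receptor for eotaxins. Granule proteins are made early in the eosinophil lineage, at the promyelocyte and myelocyte stages, whereas Siglec-F and CCR3 are used as markers of later eosinophils. Transcription factors of the GATA, C/EBP and PU.1 families are known to act together in this lineage.

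The promoter windows below show what the 2 sets carry at their start sites, since the receptor genes and Epx moved in opposite directions. Each runs from 250 bases before to 50 after a start site, 5′ to 3′ along the gene's own strand, from the RefSeq table of GRCm38.p6. The start site of the Ccr3 window lies 4146 bases inside the gene as its coordinates are given here, so it is an internal start, and the window at the outer end of that gene is not shown. Capitals mark matches on either strand to 3 short motifs. AGATAA is read by Gata1 and its family, GAGGAA by PU.1, and TTGCNNAA by C/EBP factors. The Siglecf window is chr7:43351091-43351390 on the plus strand, the Il5ra window chr6:106748988-106749287 on the minus strand, the Ccr3 window chr9:124021721-124022020 on the plus strand and the Epx window chr11:87875487-87875786 on the minus strand.
Siglecf: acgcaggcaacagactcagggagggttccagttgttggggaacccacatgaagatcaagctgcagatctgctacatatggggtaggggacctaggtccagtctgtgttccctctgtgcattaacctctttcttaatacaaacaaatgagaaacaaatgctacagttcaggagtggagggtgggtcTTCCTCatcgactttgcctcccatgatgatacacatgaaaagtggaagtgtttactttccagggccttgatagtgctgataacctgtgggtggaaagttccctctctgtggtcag
Il5ra: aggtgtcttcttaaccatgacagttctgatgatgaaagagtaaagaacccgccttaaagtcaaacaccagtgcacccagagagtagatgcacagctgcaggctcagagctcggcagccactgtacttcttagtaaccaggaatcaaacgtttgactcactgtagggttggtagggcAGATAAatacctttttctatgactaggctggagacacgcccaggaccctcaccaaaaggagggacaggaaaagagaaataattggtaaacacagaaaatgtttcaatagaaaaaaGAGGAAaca
Ccr3: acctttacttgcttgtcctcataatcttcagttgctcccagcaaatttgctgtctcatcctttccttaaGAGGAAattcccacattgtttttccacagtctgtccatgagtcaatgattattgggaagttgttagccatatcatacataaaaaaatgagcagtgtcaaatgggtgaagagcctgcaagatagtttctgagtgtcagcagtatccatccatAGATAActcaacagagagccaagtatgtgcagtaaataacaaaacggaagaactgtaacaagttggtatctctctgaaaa
Epx: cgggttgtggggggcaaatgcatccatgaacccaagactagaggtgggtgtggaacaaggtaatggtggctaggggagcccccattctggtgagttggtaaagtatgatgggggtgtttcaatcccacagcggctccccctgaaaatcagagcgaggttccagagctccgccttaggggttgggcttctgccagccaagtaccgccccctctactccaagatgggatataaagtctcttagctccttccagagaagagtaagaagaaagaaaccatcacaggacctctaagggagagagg

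A window was in the table for 8 of the 9 members; Prg2 had none. GAGGAA was present in the 3 receptor windows, of which that of Ccr3 is at the internal start, and in 0 of the 5 granule windows. In Siglecf it lies on the opposite strand, as TTCCTC. Of all 32851 windows in the table, 28.3% hold it. Its ending alone, GGAA or the reverse TTCC, lies in each of the 5 granule windows. The split between receptor and granule windows thus holds for the full GAGGAA and not for this shorter spelling. AGATAA was present in the Il5ra window and in the internal Ccr3 window and in no granule window, against 11.2% of all windows. Other spellings were not searched over all windows. TGATAA, which differs in its first letter, lies in the Siglecf window, and its reverse, TTATCA, in the Prg3 window. Of these GATA spellings, AGATAA alone was confined to receptor windows, and the Siglecf window lacks it. TTGCNNAA was present in the windows of Ear1 and Ear2 alone among the members, against 10.8% of all windows. These are matches of letters in a short window and show nothing about binding.

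The library totals ran from 7408118 to 9803258 counts. Spi1, the target of the hairpin, stood at 197, 191 and 156 CPM with doxycycline in clones 1, 2 and 4, against 48.1, 46.6 and 23.7 CPM in untreated cells, and at 52.0, 40.6 and 23.9 CPM after the wash, so every library followed its label. CPM is the count scaled to library size with TMM factors, and clones are always given in the order 1, 2 and 4. Untreated clone 1 stood apart: 21.98% of its counts lay on 1 entry without a gene symbol, against 0.153% to 1.64% in the other libraries, and its TMM factor was 0.736, against 0.916 to 1.18. Calls of members that were lost without this library, and called values that it moved by over 1.5 times, are given beside the results. The cells are a leukaemia line and are not labelled as eosinophils; a bulk library cannot tell fewer cells of a type from less RNA per cell.

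**Figure D1:**
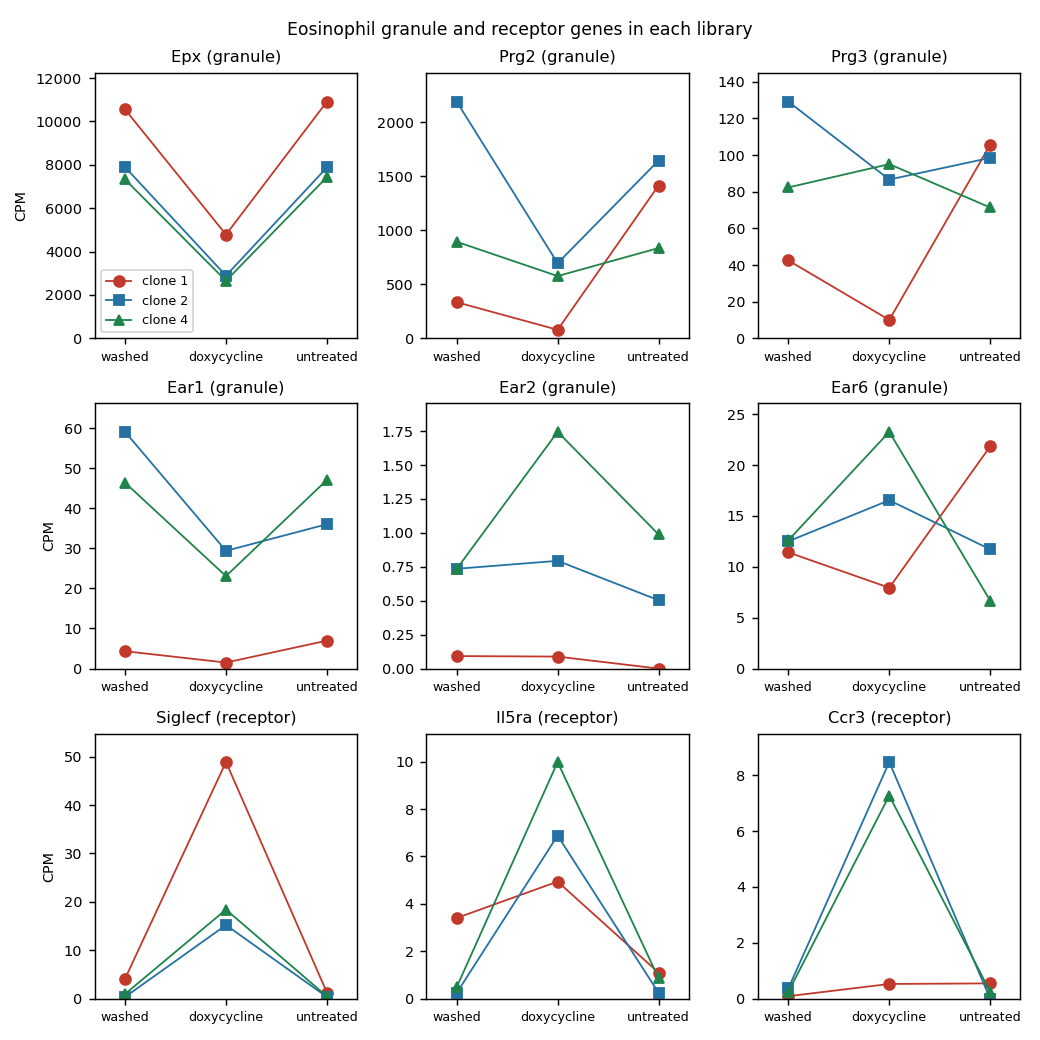
CPM of each of the 9 genes in the 9 libraries, on a linear axis from 0 with its own range for each gene, with washed, doxycycline and untreated libraries from left to right and 1 line per clone. Epx was lowest with doxycycline in every clone (4784, 2889.5 and 2654 CPM), while Siglecf was highest with doxycycline in every clone (48.9, 15.2 and 18.4 CPM).

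The first comparison, doxycycline against untreated cells, asks what differed when the hairpin against PU.1 was off. The peroxidase gene Epx was lower and the receptor genes Siglecf and Il5ra were higher with doxycycline, so the granule gene and the receptor genes that passed the test went opposite ways. Of the 7 tested members, 2 were called higher and 1 lower at an adjusted p under 0.05 (edgeR's quasi-likelihood test with Benjamini-Hochberg adjustment over all tested genes). Across all 12004 tested genes, 6.57% were called higher and 4.35% lower, 10.9% in either direction, and 24.8% in either direction with clone as a block, a fit that sets the libraries of 1 clone against each other. That fit called 2 members higher and 2 lower. Siglecf and Il5ra passed the filter on low counts only through the doxycycline libraries, where they were high. The number of receptor genes called is therefore not a result about receptors.

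Epx (Entrez gene 13861, chromosome 11, 87863997 to 87875536 on GRCm38) was the most abundant member in CPM per kilobase of gene length. By that measure it ranked between 4 and 38 of all 27179 entries in the 9 libraries. Epx stood at 4784, 2889.5 and 2654 CPM with doxycycline, against 10912, 7881 and 7434 CPM in untreated cells. The groups did not overlap, and clone 1 was highest in both. Epx fell by 1.34 on the log2 scale (SE 0.35, adjusted p = 0.0388), with group means of 3443 ± 1167 CPM in doxycycline cells and 8743 ± 1892 CPM in untreated cells (SD, n = 3 each). Within clones it was 2.28-, 2.73- and 2.80-fold lower with doxycycline. The call was lost with scaling to library size alone (log2 change -1.06, adjusted p = 0.124), without clone 2 (adjusted p = 0.200), without clone 4 (0.386) and without untreated clone 1 (-1.15, 0.128). With clone as a block its adjusted p was 0.00806.

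Prg2 (Entrez gene 19074, chromosome 2, 84980461 to 84983632) and Prg3 (Entrez gene 53856, chromosome 2, 84988196 to 84996559) are neighbours, with 4563 bases between them. Prg2 stood at 79.1, 695 and 576 CPM with doxycycline, against 1413, 1644 and 835 CPM in untreated cells. The groups did not overlap, and each clone was lower with doxycycline, but by very different amounts: 17.9-fold in clone 1, 2.37-fold in clone 2 and 1.45-fold in clone 4. The clone 1 folds of Prg2 and of Prg3 below are set against untreated clone 1, the library that stood apart. For Prg2 the log2 change of -1.53 (SE 0.80) did not pass the test (adjusted p = 0.257).

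Prg3 stood at 10.1, 86.7 and 95.1 CPM with doxycycline, against 106, 98.5 and 71.4 CPM in untreated cells. In clone 1 it was 10.5-fold lower with doxycycline, in clone 2 the ratio was 0.880 (95% interval 0.792 to 0.977), and in clone 4 it was 1.33 (1.20 to 1.48). The groups overlapped and the log2 change of -0.52 (SE 0.67) did not pass (adjusted p = 0.661); without clone 1 it was 0.10. These intervals, like all intervals on ratios within a clone given here, are exact and cover counting error only.

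The ribonuclease genes lie on chromosome 14. Ear1 (Entrez gene 13586, 43818765 to 43819639) and Ear2 (Entrez gene 13587, 44102654 to 44103531) are near-identical copies 283014 bases apart. Their transcripts are identical at 96.0% of aligned positions, with a longest shared run of 96 bases, and their promoter windows at 97.0%, so how reads were shared between them is uncertain. The windows, chr14:43819590-43819889 on the minus strand for Ear1 and chr14:44102404-44102703 on the plus strand for Ear2, are shown for this likeness, with the TTGCNNAA match in capitals.
Ear1: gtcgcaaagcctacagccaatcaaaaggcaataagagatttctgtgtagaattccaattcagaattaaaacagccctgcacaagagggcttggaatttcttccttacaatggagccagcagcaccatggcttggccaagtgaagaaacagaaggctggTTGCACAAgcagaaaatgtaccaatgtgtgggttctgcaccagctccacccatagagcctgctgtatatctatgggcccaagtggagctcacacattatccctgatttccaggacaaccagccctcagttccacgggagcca
Ear2: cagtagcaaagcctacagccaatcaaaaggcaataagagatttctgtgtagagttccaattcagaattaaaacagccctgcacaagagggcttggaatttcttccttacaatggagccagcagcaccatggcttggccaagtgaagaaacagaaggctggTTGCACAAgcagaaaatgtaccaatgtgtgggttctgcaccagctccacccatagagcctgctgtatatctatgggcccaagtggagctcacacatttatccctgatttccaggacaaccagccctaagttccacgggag

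Ear1 stood at 1.50, 29.4 and 23.1 CPM with doxycycline, against 6.97, 36.0 and 47.1 CPM in untreated cells. It was lower with doxycycline in every clone, with ratios of 0.215, 0.815 and 0.490, but the groups overlapped because clone 1 was far below the other clones in both. The log2 change of -0.75 (SE 1.08) did not pass (adjusted p = 0.695). With clone as a block it was -1.03 (SE 0.31, adjusted p = 0.0420), so that 2 members were then called lower, where the block called 11.7% of all tested genes lower.

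Ear2 gave 1, 6 and 18 counts with doxycycline, against 0, 4 and 8 counts in untreated cells, too few to read a difference. Ear6 (Entrez gene 93719, 51853768 to 51854643), whose transcript is identical to that of Ear1 at 62.2% of aligned positions, stood at 7.94, 16.5 and 23.3 CPM with doxycycline, against 21.8, 11.7 and 6.67 CPM in untreated cells. Its ratios within clones were 0.364 in clone 1, 1.41 in clone 2 and 3.49 in clone 4, so the clones went different ways, and the log2 change of 0.26 (SE 0.47) did not pass (adjusted p = 0.766); without clone 4 it was -0.46. Of the other Ear family genes, 4 matched an entry. Ear10, Ear14 and Rnase2b had no count in any library, and Rnase2a had 0 counts with doxycycline and in untreated cells at most 2 in a library.

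The receptor genes were near the floor of counting in untreated cells. Siglecf (Entrez gene 233186, chromosome 7, 43351341 to 43359475) stood at 48.9, 15.2 and 18.4 CPM with doxycycline, from 554, 115 and 190 counts. In untreated cells it stood at 1.28, 0.378 and 0.494 CPM, from 7, 3 and 4 counts. The groups did not overlap. Within clones the ratio was 38.1 (95% interval 18.4 to 95.1) in clone 1, 40.3 (13.4 to 198) in clone 2 and 37.3 (14.3 to 138) in clone 4. These ratios lay close together, but their intervals are too wide to show that the clones responded alike. The ratio of clone 1 is also set against untreated clone 1, the library that stood apart. In both groups the level in clone 1 was higher than in the other clones. Siglecf rose by 5.32 on the log2 scale (SE 0.92, adjusted p = 0.00941), and its means were 27.5 ± 18.6 CPM in doxycycline cells and 0.719 ± 0.493 CPM in untreated cells (SD, n = 3 each). The change was 5.29 without clone 2 (adjusted p = 0.0600) and 5.30 without clone 4 (0.212), where the call was lost, and 5.94 without untreated clone 1 (0.0394).

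Il5ra (Entrez gene 16192, chromosome 6, 106710375 to 106749037) stood at 4.94, 6.88 and 9.98 CPM with doxycycline, against 1.10, 0.252 and 0.865 CPM in untreated cells. These rest on 56, 52 and 103 counts with doxycycline and 6, 2 and 7 counts in untreated cells. The groups did not overlap. The ratio was 4.49 (95% interval 1.94 to 12.8) in clone 1, 27.3 (7.19 to 232) in clone 2 and 11.5 (5.41 to 29.4) in clone 4. Il5ra rose by 3.31 on the log2 scale (SE 0.90, adjusted p = 0.0467). The call was lost without clone 2 (2.92, adjusted p = 0.148), without clone 4 (3.16, 0.374) and without untreated clone 1 (3.66, 0.122).

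Ccr3 (Entrez gene 12771, chromosome 9, 124017825 to 124031692) differed from the other receptors by clone. It gave 6, 64 and 75 counts with doxycycline, against 3, 0 and 2 counts in untreated cells. In clone 1 the ratio was 0.962 (95% interval 0.205 to 5.94), in clone 2 Ccr3 was at least 22.4-fold higher with doxycycline, set against a floor of 3 counts in the untreated library, and in clone 4 the ratio was 29.4 (7.87 to 247). In a fit with no filter on low counts, in which 6.74% of 17582 genes were called, its adjusted p was 0.0313. Siglecf and Il5ra passed the filter through their doxycycline libraries, and Ccr3 did not because clone 1 was low in every group, so the number of receptors called is not a result about receptors as a class.

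**Figure D2:**
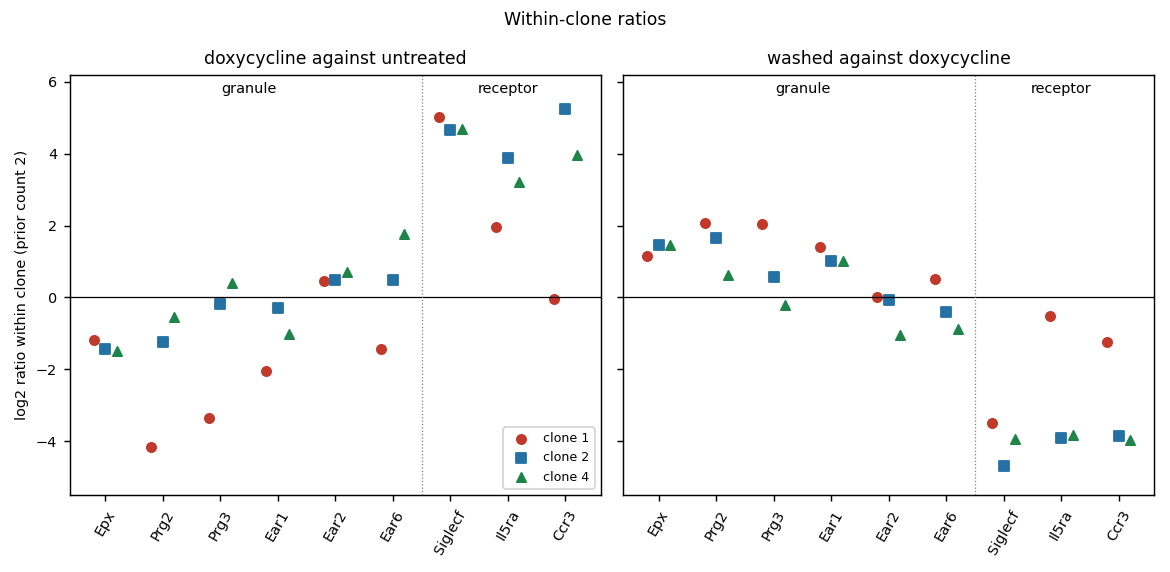
Log2 ratio within each clone (log2 CPM with a prior count of 2) for the 9 genes, doxycycline over untreated on the left and washed over doxycycline on the right, with 1 point per clone. For doxycycline over untreated the Siglecf points lie at 5.02, 4.66 and 4.68 in clones 1, 2 and 4, while those of Prg2 spread from -4.16 to -0.54.

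Granule and receptor genes were set against each other within each clone by the median log2 ratio of each set, taken on log2 CPM with a prior count of 2. For doxycycline over untreated the granule median was -1.74 in clone 1, -0.24 in clone 2 and -0.06 in clone 4. Both sets, here and for the wash, include a gene under the filter, Ear2 and Ccr3. Among the 5 tested granule genes the middle ratio was that of Ear1 in clones 1 and 2 (-2.06 and -0.29). In clone 4 it was that of Prg2 (-0.54). The receptor median was 1.96, 4.66 and 3.97. The receptor median exceeded the granule median by 3.70, 4.90 and 4.03, a mean of 4.21 ± 0.62 (SD, n = 3 clones). This difference is a description without a test, because the members were chosen with results of these data known.

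The summed levels lie far apart. The 6 granule genes together stood at 4882, 3718 and 3373 CPM with doxycycline, against 12459.9, 9672 and 8395 CPM in untreated cells. The 3 receptor genes together stood at 54.3, 30.6 and 35.7 CPM with doxycycline, against 2.94, 0.630 and 1.61 CPM in untreated cells. Per kilobase of gene length, Epx made up 93.8%, 52.1% and 53.6% of the granule sum with doxycycline, against 68.8%, 57.9% and 70.6% in untreated cells. Its share was thus higher with doxycycline in clone 1 and lower in clones 2 and 4.

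The granule genes did not move as 1 block, which shows when each is set against Epx per kilobase of gene length. Prg2 was at 5.31%, 77.2% and 69.7% of the Epx level with doxycycline, against 41.6%, 67.0% and 36.1% in untreated cells. Prg3 was at 0.596%, 8.50% and 10.2% of the Epx level with doxycycline, against 2.75%, 3.54% and 2.72% in untreated cells. Ear6 was at 0.627%, 2.16% and 3.31% with doxycycline, against 0.755%, 0.561% and 0.339% in untreated cells. All 3 ratios were lower with doxycycline in clone 1 and higher with doxycycline in clones 2 and 4.

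**Figure D3:**
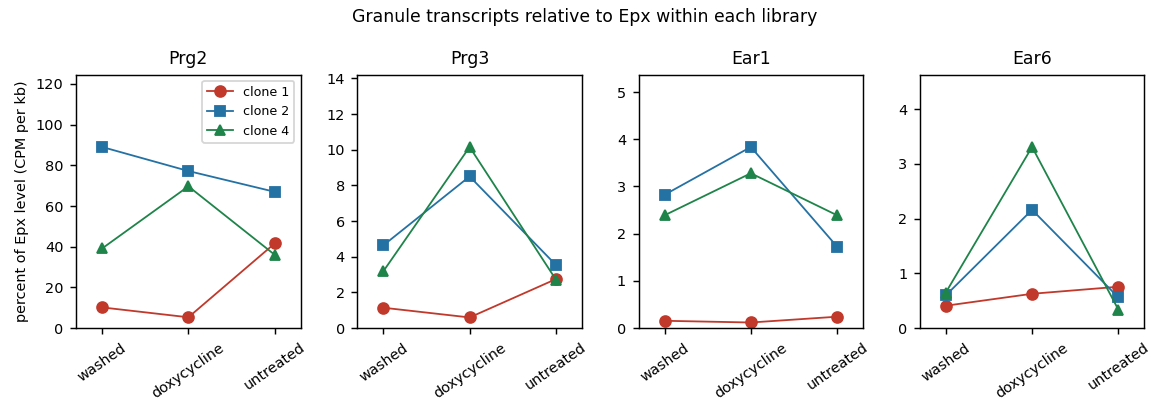
Level of Prg2, Prg3, Ear1 and Ear6 as a percentage of Epx in the same library, both in CPM per kilobase of gene length, with washed, doxycycline and untreated libraries from left to right and 1 line per clone. With doxycycline Prg2 stood at 5.31% of Epx in clone 1 but at 77.2% and 69.7% in clones 2 and 4.

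Whether the clones differed was tested in 2 ways. Differences between clones with the group means removed were called for 0 of the 7 tested members by edgeR's quasi-likelihood F test, where 0% of the 12004 genes were called. At an unadjusted p under 0.05 there were 2, Ear1 (adjusted p = 0.0505) and Siglecf (adjusted p = 0.0511). A comparison of clone 1 with clone 2, chosen after seeing the data, called both: Ear1 was lower in clone 1 by a log2 difference of -3.44 (SE 0.33, adjusted p = 0.0283) and Siglecf was higher in clone 1 by 2.10 (SE 0.35, adjusted p = 0.0315). It called 18.5% of all tested genes. For clone 1 against clone 4 the log2 differences were -3.30 for Ear1 (SE 0.33, adjusted p = 0.0571) and 1.64 for Siglecf (SE 0.33, adjusted p = 0.110). Neither comparison with clone 4 called a member, and each called 0% of the 12004 genes.

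Whether the response itself differed between clones was tested with an interaction of clone and hairpin state, in which the washed and untreated libraries of a clone stand together as GFP high. It called 0 of the 7 members and 0% of all tested genes with edgeR (every member's adjusted p was 1), and 2 members had an unadjusted p under 0.05, Prg3 (0.0138) and Il5ra (0.0261). The spread of Prg2 and Ear6 between clones described above had unadjusted p-values of 0.0950 and 0.0507. The different directions of single granule genes in clone 1 and clone 4 are therefore a description of these libraries.

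The second comparison, washed against doxycycline cells, asks what differed 14 days after the drug was removed. It shares the doxycycline libraries with the first, so the reverse directions are not independent of it. Epx was higher and Siglecf lower after the wash. Of the 7 tested members, 1 was called higher and 1 lower, where 3.64% of all tested genes were called higher and 6.02% lower, 9.66% in either direction. With clone as a block 2 members were called higher and 2 lower, where 22.9% of all tested genes were called. The filter limits the receptor calls here as in the first comparison.

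Epx stood at 10552, 7893 and 7324 CPM after the wash, against 4784, 2889.5 and 2654 CPM with doxycycline, with no overlap. It rose by 1.32 on the log2 scale (SE 0.35, adjusted p = 0.0449). With clone as a block the adjusted p was 0.00878. The call was lost with library size alone (adjusted p = 0.0878), with the 2 groups fitted alone (0.118), without clone 2 (0.236), without clone 4 (0.421), without untreated clone 1 (0.0583) and without washed clone 1 (0.0523).

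Prg2 stood at 334, 2188 and 893 CPM after the wash, against 79.1, 695 and 576 CPM with doxycycline. Each clone was higher after the wash, by 4.23-, 3.15- and 1.55-fold, while the groups overlapped and the log2 change of 1.34 (SE 0.80) did not pass (adjusted p = 0.331). Prg3 stood at 42.5, 129 and 82.3 CPM after the wash, against 10.1, 86.7 and 95.1 CPM with doxycycline (log2 change 0.41, adjusted p = 0.758). Prg3 was higher after the wash in clones 1 and 2 and lower in clone 4.

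Ear1 stood at 4.33, 59.1 and 46.4 CPM after the wash, against 1.50, 29.4 and 23.1 CPM with doxycycline. The ratios were 2.88, 2.01 and 2.01, and the log2 change of 1.03 (SE 1.08, adjusted p = 0.600) became 1.09 (SE 0.30, adjusted p = 0.0330) with clone as a block. The block thus called 2 members higher, where it called 10.4% of all tested genes higher. Ear6 stood at 11.4, 12.5 and 12.6 CPM after the wash, against 7.94, 16.5 and 23.3 CPM with doxycycline (log2 change -0.39, adjusted p = 0.658), and Ear2 gave 1, 6 and 6 counts after the wash, against 1, 6 and 18 counts with doxycycline.

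Siglecf stood at 4.14, 0.368 and 0.979 CPM after the wash, against 48.9, 15.2 and 18.4 CPM with doxycycline. It fell by 3.85 on the log2 scale (SE 0.81, adjusted p = 0.0210), and it was 11.8-fold lower (95% interval 8.70 to 16.4) in clone 1, 41.4-fold (13.8 to 204) in clone 2, where 3 counts were left, and 18.8-fold (9.35 to 44.2) in clone 4, with no overlap between the groups. The call was lost without clone 2 (adjusted p = 0.0977), without clone 4 (0.304) and with the 2 groups fitted alone (0.0706). The change was -5.33 without washed clone 1 (adjusted p = 0.00375) and -4.61 without clone 1 in all groups (adjusted p = 0.00681).

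Il5ra stood at 3.41, 0.245 and 0.489 CPM after the wash, against 4.94, 6.88 and 9.98 CPM with doxycycline. It was 28.1-fold lower (95% interval 7.39 to 238) in clone 2 and 20.4-fold lower (7.73 to 76.3) in clone 4, from 2 and 4 counts after the wash, while in clone 1 it was 1.45-fold lower (95% interval 0.941 to 2.26). The log2 change of -2.33 (SE 0.82) did not pass (adjusted p = 0.110). With clone as a block it was -2.70 (SE 0.75, adjusted p = 0.0357), so that 2 members were called lower, where the block called 12.4% of all tested genes lower. Without washed clone 1 it was -4.25 (adjusted p = 0.00557), and without clone 1 in all groups -4.47 (adjusted p = 0.0131). The groups did not overlap, with washed clone 1 nearest to the doxycycline libraries. Ccr3 gave 1, 3 and 2 counts after the wash, against 6, 64 and 75 counts with doxycycline, and in the fit with no filter, which called 5.66% of genes, its adjusted p was 0.0289.

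The granule median of the ratios exceeded the receptor median in every clone: the receptor minus granule difference for washed over doxycycline was -2.50 in clone 1, -4.69 in clone 2 and -4.16 in clone 4. Its mean was -3.78 ± 1.14 (SD, n = 3 clones), with clone 1 the smallest in size.

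The third comparison, washed against untreated cells, asks whether the levels after the wash differed from those of cells never given the drug. It called 0 of the 7 tested members with edgeR, DESeq2 or limma voom, and 0 members had an unadjusted p under 0.05 in edgeR. Among all tested genes 0% were called, with 38 at an unadjusted p under 0.05. Epx stood at 10552, 7893 and 7324 CPM after the wash, against 10912, 7881 and 7434 CPM in untreated cells, with ratios within clones of 0.967, 1.00 and 0.985 and a log2 difference of -0.03 (SE 0.34). The groups overlapped.

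For Siglecf, Il5ra, Prg2 and Prg3 the washed library of clone 1 lay further from its untreated library than those of clones 2 and 4 did, on the ratio scale. In clone 1 Siglecf was at 4.14 CPM in washed cells and 1.28 CPM in untreated cells, a ratio of 3.23 (95% interval 1.44 to 8.48), and Il5ra was at a ratio of 3.09 (1.30 to 8.97). Prg2 was at 334 CPM in washed cells and 1413 CPM in untreated cells of clone 1, a ratio of 0.237, and Prg3 was at a ratio of 0.402. With 1 library a clone these ratios have no replicate. Their denominator is untreated clone 1, the library that stood apart in its counts and TMM factor. How much of the ratios lies in that library and how much in washed clone 1 was not tested. The log2 changes over the 3 clones were 1.46 for Siglecf (SE 0.93) and 0.98 for Il5ra (SE 0.92), with adjusted p-values of 1. Without washed clone 1 they were 0.0052 for Siglecf and -0.93 for Il5ra, and the direction of Il5ra turned. Markers of neutrophil primary granules (Mpo, Elane, Prtn3 and Ctsg; all 4 had counts) summed to 3176 CPM in washed clone 1, against 281 and 269 CPM in the washed libraries of clones 2 and 4 and 564, 316 and 305 CPM in untreated cells. Their part in the values of clone 1 was not tested.

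Genes around the members were read from lists of other eosinophil genes and of other blood cells. Of 13 tested genes for other eosinophil receptors and mediators (18 matched), 4 rose and 0 fell with doxycycline, where 6.57% of all tested genes were called higher and 4.35% lower. The median log2 change of the list was 0.45, beside 0.00 over all tested genes. Ccr1, a chemokine receptor, stood at 20.4, 28.3 and 35.1 CPM with doxycycline, against 1.47, 1.13 and 0 CPM in untreated cells (log2 change 5.06, adjusted p = 0.00477). Alox15, the lipoxygenase that makes eosinophil lipid mediators, stood at 178, 1024 and 550.1 CPM with doxycycline, against 15.0, 23.5 and 12.7 CPM in untreated cells (5.09, adjusted p = 0.00575). Both were higher with doxycycline in every clone and did not overlap between the groups. Pirb, an inhibitory immunoglobulin-like receptor, rose by 5.12 (adjusted p = 0.00811), and Csf2ra, the ligand-specific chain of the GM-CSF receptor, rose by 1.31 (adjusted p = 0.00982). Il1rl1 of this list went the other way without a call. It averaged 161 ± 141 CPM in doxycycline cells and 370 ± 133 CPM in untreated cells (SD, n = 3 each). Ltc4s, Ptgdr2 and Hrh4 reached at most 0.882 CPM in any library. After the wash the same list had 0 called higher and 4 lower than with doxycycline. Across all tested genes 3.64% were called higher and 6.02% lower after the wash.

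Markers of other cells moved with the members. Markers of neutrophil secondary granules and mature neutrophils summed to 2397, 589.8 and 1118 CPM with doxycycline, against 101, 43.2 and 21.6 CPM in untreated cells, and all 10 had counts. Of the 8 tested, 6 rose and 0 fell, with a median log2 change of 3.88. Across all tested genes 6.57% were called higher and 4.35% lower. Camp did not follow, with means of 6.25 CPM in doxycycline cells and 5.88 CPM in untreated cells. Mmp8 (means of 0.544 and 0.633 CPM) and Mmp9 (0.229 and 0.205 CPM) had few counts in both groups. S100a9, a calcium-binding protein of neutrophils, rose by 6.24 (adjusted p = 0.00180) and Lcn2, an iron-scavenging protein of secondary granules, by 5.13 (adjusted p = 0.000865). The sum was higher with doxycycline in every clone, as Siglecf and Il5ra were. Their part in the changes of the receptor genes was not tested.

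Primary granule markers summed to 224, 75.4 and 99.6 CPM with doxycycline, against 564, 316 and 305 CPM in untreated cells. Of the 4, 0 were called in either direction without the block and 3 were lower with it (median log2 change -1.83), Elane by an adjusted p of 0.00516 with the block. The block called 11.7% of all tested genes lower. Mast cell and basophil markers summed to 208, 1439.9 and 712 CPM with doxycycline, against 1777, 1813 and 1485 CPM in untreated cells. Fcer1a, the defining receptor chain of both cells, was at 0 counts in every library, and Mcpt4 was at 0 in doxycycline and untreated libraries. Of the 6 tested, 0 rose and 1 fell, Cma1, a mast cell chymase (log2 change -4.05, adjusted p = 0.0252), and 2 fell with the block. Across all tested genes 4.35% were called lower, and 11.7% with the block. Cpa3 made up most of the sum, with means of 580 CPM in doxycycline cells and 1512 CPM in untreated cells. Not all markers followed: Mcpt8 averaged 72.0 CPM against 27.3 CPM (log2 change 1.39, edgeR adjusted p = 0.456). Hdc averaged 131 CPM against 139 CPM. The sum of these markers was lowest in clone 1 with doxycycline, as were Prg2, Prg3 and Ear1, and the part of such cells in those levels was not tested.

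Monocyte and macrophage markers summed to 38.9, 96.2 and 76.3 CPM with doxycycline, against 70.4, 73.2 and 68.1 CPM in untreated cells, and Marco had no count in any library. Of the 5 tested, 1 rose and 1 fell, where 6.57% of all tested genes were called higher and 4.35% lower. Fcgr1, the high-affinity Fc receptor for IgG, had a log2 change of 5.62 (adjusted p = 0.0123), and Cx3cr1, the fractalkine receptor, one of -5.15 (adjusted p = 0.00155).

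**Figure D4:**
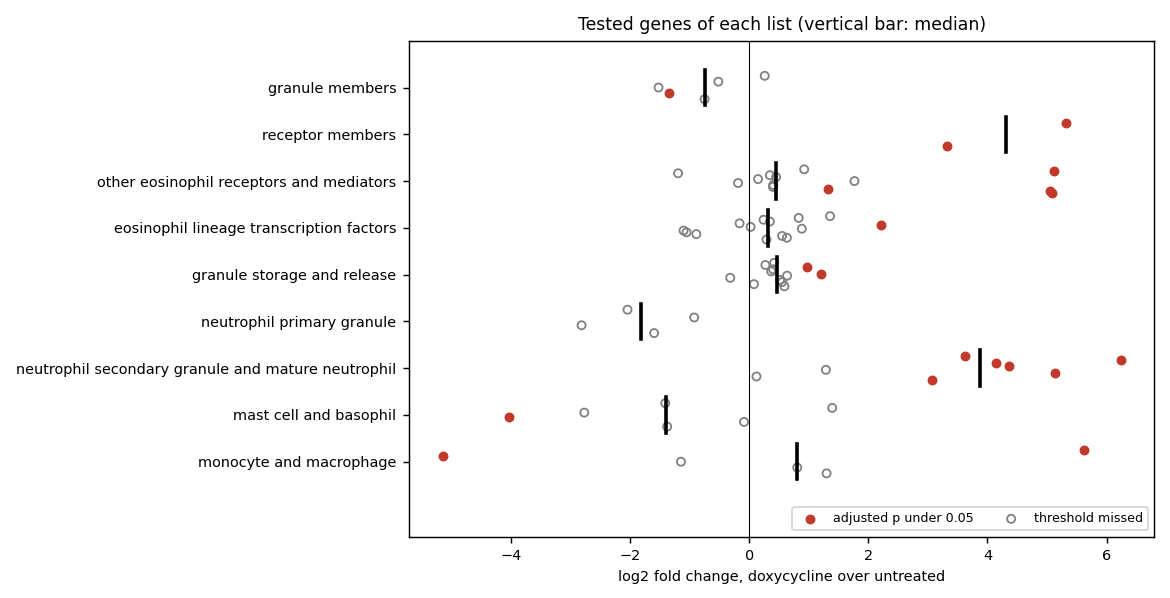
log2 fold change, doxycycline over untreated, of every tested gene of each list, with filled points for genes with an adjusted p under 0.05, open points for those that missed it and a vertical bar for the median. The median lies at 3.88 for neutrophil secondary granule and mature neutrophil genes, at 0.45 for other eosinophil receptors and mediators and at -0.75 for the 5 tested granule genes.

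The genes whose pattern was most like that of a member were found by Pearson's correlation of log2 CPM over the 9 libraries, among 11786 other tested entries with a symbol. This is a description: the libraries share clones and fall into groups of different level. For Epx the 5 highest were Arhgef28 (r = 0.983), Abhd14a (0.979), Nt5dc2 (0.979), Rps2 (0.978) and Pebp1 (0.977). Rps2, a protein of the small ribosomal subunit, averaged 136 ± 26.3 CPM in doxycycline cells and 244 ± 17.1 CPM in untreated cells (SD, n = 3 each). For Siglecf they were Cpne2 (0.995), Scamp2 (0.992), Slc66a2 (0.991), Cstdc6 (0.991) and Nptn (0.990). Of these Cstdc6 had the widest range, with 33.6 ± 14.6 CPM in doxycycline cells and 1.32 ± 0.452 CPM in untreated cells (SD, n = 3 each), while Cpne2 averaged 126 ± 10.5 CPM in doxycycline cells and 65.8 ± 4.42 CPM in untreated cells.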

How the data were processed

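RNA was sequenced from FACS-sorted AML246 cells, and libraries followed Illumina protocols, per the labels' protocols. Each file as deposited lists whole-number counts of reads for every Entrez gene beside its length, per the file headers. The submitters' processing notes name mm10, limma 3.22.0, edgeR 3.8.2, featureCounts and CASAVA 1.8.2. The aligner, annotation, strand setting and handling of multi-matching reads are not given in the sources here, so reads of overlapping antisense genes or near-identical copies cannot be told apart.

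Symbols and coordinates came from RefSeq tables of GRCm38.p6: 25275 of 27179 entries matched and 1904 did not. Transcript identity was computed on the GENCODE transcripts supplied. A quasi-likelihood model with 1 mean per group was fitted to all 9 libraries (R 4.3.3, edgeR 4.0.16) after filterByExpr (12004 genes) and TMM scaling, with Benjamini-Hochberg adjustment over all tested genes at 0.05. For log2 CPM the prior count was 2. Each SE was taken as the log2 change over the square root of F. Ratios within a clone have 95% exact conditional intervals, and a floor of 3 counts stands in for a library at 0. In fits with 1 mean per group alone, the spread behind each p-value is that between 3 clones of the same line. Fits that include clone (the block, the clone differences and the interaction) take it from what remains between libraries of a clone.

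Members, lists and tests were chosen with earlier results of these data known. All 9 members are named, with Spi1, at most 4 tested genes of smallest p per list, and the 5 genes most correlated with Epx and with Siglecf. Further genes of a list are named where they make up a sum, did not follow the list or had few or no counts. The 8 other lists hold 89 names, of which 83 matched. Libraries with the same clone number come from 1 cell line, so the numbers pair them; deviations from the group means correlated within clones at 0.29 to 0.68 in 9 of 9 pairs. The chi-square per degree of freedom of the closest 2 libraries was 3.62, so each was kept as its own library. The pipeline was tested on simulated data. Alternatives were RLE factors, library size alone (with and without entries lacking a symbol), DESeq2 1.42.0, limma 3.58.1 voom, no filter or a stricter one (5 CPM in at least 3 libraries), the 2 groups alone, clone as a block, a prior count of 0.5, leaving out each clone, and leaving out untreated or washed clone 1; comparisons of pairs of clones were chosen after seeing the data.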

Additional observations from a re-analysis of the deposited data

How the results depend on the processing

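No direction of a called member reversed under any alternative run. For doxycycline against untreated, 2 members were called higher; leaving out each clone gave 0 to 3, and leaving out untreated clone 1 gave 1. The 1 called lower became 0 with library size alone (also with entries lacking a symbol left out), 0 to 1 leaving out each clone, 0 without untreated clone 1, and 2 with clone as a replicate block. For washed against doxycycline, the 1 called higher became 0 with library size alone (both forms), with the 2 groups alone, without untreated clone 1 and without washed clone 1, 0 to 1 leaving out each clone, and 2 with the replicate block. The 1 called lower became 2 with no filter, DESeq2, limma voom, the replicate block and without washed clone 1, 0 with the 2 groups alone, and 0 to 3 leaving out each clone. Washed against untreated gave 0 throughout. Differences between clones, 0 members, became 1 with RLE factors, 3 with library size alone and 2 for clone 1 against clone 2. Of all tested genes, 0% were called in the main fit and 18.5% for clone 1 against clone 2. The shares with RLE factors and with library size alone were not counted, so those counts are not a result about the members. The mean receptor minus granule difference ran from 4.18 to 4.65 for doxycycline against untreated and from -3.78 to -4.34 for washed against doxycycline. With the replicate block the calls that changed were those of Ear1 in both comparisons and of Il5ra in washed against doxycycline.

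Calls over all genes, 1311 for doxycycline against untreated, were 2138 with DESeq2, 2026 with the 2 groups alone, 2976 with the replicate block, 159 without clone 2, 0 without clone 4, 347 without untreated clone 1 and 2258 without washed clone 1. The 1160 for washed against doxycycline were 648 with library size alone, 1967 with DESeq2, 324 with the 2 groups alone, 2744 with the replicate block, 70 without clone 2, 4 without clone 4, 717 without untreated clone 1 and 1814 without washed clone 1. Member calls lost without clone 2 or clone 4 were thus lost along with most calls over all genes. Those losses are not a result about the members. Library size alone moved the median log2 change of all genes to 0.23 for doxycycline against untreated, and Epx lay 1.29 under that median (-1.29), against -1.35 with TMM; 75.6% of calls were then higher, against 60.2%. Siglecf, Il5ra and Ccr3 rest on under 10 counts in each untreated library, so their folds are bounded only by wide counting intervals, and 3 clones of 1 line limit what a missed threshold can show.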

Other observations

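Genes for granule storage and release and for transcription factors of the lineage were read beside the members. Of 12 tested storage and release genes, 2 rose and 0 fell with doxycycline (median log2 change 0.46), and 5 rose and 0 fell with clone as a block, where 6.57% of all tested genes were called higher without the block and 13% with it. Stx3, a syntaxin of granule fusion, stood at 184, 214 and 201 CPM with doxycycline in clones 1, 2 and 4, against 76.5, 85.9 and 97.6 CPM in untreated cells (log2 change 1.20, edgeR adjusted p = 0.00720). Vamp8, a vesicle protein of granule fusion, rose by 0.96 (edgeR adjusted p = 0.0102). The groups did not overlap for Stx3, in the same libraries in which Epx was lower.

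Of 14 tested transcription factors, 1 rose and 0 fell, where 6.57% of all tested genes were called higher and 4.35% lower. The 1 that rose was Spi1 itself (log2 change 2.20, edgeR adjusted p = 0.00623). With the block 3 rose and 1 fell, where it called 13% of all tested genes higher and 11.7% lower. Trib1, a pseudokinase needed for eosinophil identity in the mouse, stood at 158, 256 and 113 CPM with doxycycline, against 57.8, 99.2 and 48.5 CPM in untreated cells (log2 change 1.35, adjusted p = 0.0736 without the block and 0.00332 with it). Cebpe, a factor of late granulocyte maturation, had a log2 change of 0.83 (adjusted p = 0.127 without the block and 0.0113 with it). The median log2 change of the list was 0.31. Gata1 and Gata2 had lower means with doxycycline, and neither was called without the block. Gata1 averaged 55.5 CPM in doxycycline cells (15.2 to 92.9) and 102.9 CPM in untreated cells (89.5 to 121.7). Gata2 averaged 636 CPM in doxycycline cells (237.7 to 1166.7) and 1324 CPM in untreated cells (897.9 to 1668.9). For both genes the groups overlapped. Their means after the wash were 98.0 and 1172 CPM.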
